A study of Mus musculus with 6 samples.

Results

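The genes described here encode the proteins of the cytosolic ribosome in tdT+ cells sorted from mouse cerebral cortex. They were taken as every gene whose symbol starts with Rpl or Rps, without the kinase genes that start with Rps6k, which gave 91 of the 23494 genes in the count tables. Of these, 77 are the canonical ribosomal protein genes, 46 of the large and 31 of the small subunit. The others are 8 paralog-like genes, 5 genes with a pseudogene name, and Rps19bp1, which encodes a binding partner of a ribosomal protein and not a ribosomal protein. The rule for members used the symbols alone and no measured value, though it was set with earlier results of these data known.

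The cells came from 2 lineage tracing lines, the NG2 line (NG2-Cre-ERT2/Ai14-flx) beside the Tbx18 line (Tbx18-CreERT2/Ai14-flx), in which tamoxifen switches on the red protein tdT in cells that express NG2 or Tbx18. The mice were 3 to 4 months old and received tamoxifen, in the injured groups 7 days before injury. They were left naive, injected in the cortex with saline (physical injury) or injected with ET-1/L-NAME, which narrows vessels (ischemic injury). Injured cortex was collected 3 days after injection. Live tdT+/DAPI- cells of pooled animals were sorted and made into 1 droplet library for each line and condition, so there was no replicate, no test between conditions was possible, and every interval below covers counting error only. NG2 is also expressed by oligodendrocyte precursor cells (OPCs), so the NG2 driver does not mark mural cells alone.

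Ribosomal proteins are made in near equal numbers and assembled with ribosomal RNA in the nucleolus. Their mRNAs are short, stable and abundant, and most start with a run of pyrimidines, the 5′ terminal oligopyrimidine (TOP) tract, through which mTOR signalling and Larp1 control their translation. Because growing and dividing cells need more ribosomes, the family often differs between cell types and states. A separate family, Mrpl and Mrps, serves the mitochondrial ribosome.

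The 6 libraries held 686 to 4306 cells and 3153996 to 54276245 UMIs, where a UMI marks 1 captured mRNA molecule. The median UMIs per cell were 4043 (naive), 6322 (physical injury) and 7851 (ischemic injury) in the NG2 line, and 2806, 7376 and 9232 in the Tbx18 line. Libraries shared 0 to 5 cell barcodes per pair, at most 0.437% of the smaller library. The clusters are the authors' own, and they were formed on expression that can include these genes, so differences between clusters are descriptions. From marker genes, clusters 0 and 2 of the NG2 line were pericyte-like, 3 smooth muscle-like, 4 oligodendrocyte-like (OL-like), 5 endothelial-like and 8 mesenchymal-like. In cluster 8 the fibroblast markers were nearly as high as the mesenchymal ones, and the fibroblast marker Dcn was among its leading genes. Cluster 1 also had the pericyte markers highest. The fibroblast marker Slc6a13 was among the leading genes of both clusters 0 and 1, and the pericyte marker Kcnj8 among those of cluster 0. In cluster 6 OPC markers and those of committed precursors were at similar levels, cluster 7 was led by Aldh1a3, Pyy and Igfbp2 with the cell-division genes Ube2c, Cenpf, Hmmr and Ccnb1 and the radial glia gene Fabp7, cluster 9 had microglia and myeloid markers, and the shallow cluster 10 stayed unnamed. In the Tbx18 line cluster 0 was endothelial-like, 1 smooth muscle-like, 2 pericyte-like, 3 myeloid-like, 5 fibroblast-like, and cluster 4, led by Prg4 and Slc4a10 and with the cell-division list highest, stayed unnamed.

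To look for pyrimidine runs near the head of these mRNAs, the 40 bases around the transcription start were read for genes with high ratios below. Of these genes, 6 had a run of at least 6 C or T and 2 had none. The windows come from the RefSeq promoter table of GRCm38.p6. They run 5′ to 3′ on the gene's strand, with 20 bases before the start and 20 after it. Capitals mark the longest run of C or T.
Rplp0, chr5:115559447-115559486, + strand: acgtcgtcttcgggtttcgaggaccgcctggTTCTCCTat
Rps2, chr17:24720043-24720082, + strand: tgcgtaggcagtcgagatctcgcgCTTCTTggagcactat
Rps26, chr10:128626487-128626526, - strand: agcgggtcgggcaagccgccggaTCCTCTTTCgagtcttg
Rps12, chr10:23787190-23787229, - strand: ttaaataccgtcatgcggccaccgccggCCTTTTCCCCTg
Rpl12, chr2:32961692-32961731, + strand: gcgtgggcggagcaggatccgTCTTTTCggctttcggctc
Rpl13a, chr7:45128726-45128765, - strand: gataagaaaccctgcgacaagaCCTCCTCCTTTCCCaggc
Rpl41, chr10:128549149-128549188, - strand: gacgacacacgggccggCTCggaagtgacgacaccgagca
Rps19, chr7:24884572-24884611, + strand: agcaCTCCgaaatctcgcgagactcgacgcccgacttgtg
The run was 14 bases long in Rpl13a, 11 in Rps12, 9 in Rps26, 7 in Rplp0 and in Rpl12, and 6 in Rps2. Counted from the annotated first base, it began at base 3 in Rpl13a, 9 in Rps12 and 4 in Rps26. It began at base 12 in Rplp0, 2 in Rpl12 and 5 in Rps2. No marked run thus began at the annotated first base, where a TOP tract would begin. In Rpl41 and Rps19 the longest runs of this window had 3 and 4 bases. The annotated start may lie some bases from the start used in these cells.

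Of the 91 members 66 had an entry in this table, 57 of them canonical. In the window of 20 bases on each side, a run of 6 or more C or T was present in 64.9% of the 57 canonical genes (95% interval 51.1 to 77.1) and in 36.7% of 16038 genes of the tables. The letters CTTTC on the gene's strand were found in 17 of the 57 (29.8%, 18.4 to 43.4) against 4.90% of all genes, and they can lie within such a run. Over the whole 300 bases and on both strands, CCGGAAG, the core of ETS factor motifs, was in 40.4% against 13.4%, and AAGATGGC, the core of the YY1 motif, in 7.02% against 3.59%. The letters TATAAA upstream of the start were in 0 of 57 canonical promoters and in 1.75% of all. Pyrimidine runs and the ETS letters were therefore more frequent in these windows than among all genes, while the YY1 interval of 1.95 to 17.0 included the share of all genes. A match is a description of the letters and not of a bound factor.

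Ribosomal protein genes held 8.60% of all UMIs, and the 77 canonical genes alone 8.46% or 84558 CPM, the counts scaled to a total of 1000000 UMIs. A UMI is counted once per molecule at its 3′ end, so levels were not divided by gene length. The median canonical gene was at 1088 CPM over all cells against 5.48 CPM for the median gene of the tables, and 39 of the 100 highest genes were canonical ribosomal protein genes. The 46 large subunit genes held 4.74% of UMIs and the 31 small subunit genes 3.72%, a ratio of 1.28. The 14 non-canonical members together gave 1.67% of the family's UMIs.

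Among the 8 highest were Rplp1, a protein of the stalk that recruits elongation factors, at 2057 CPM, and Rpl41, the smallest ribosomal protein, at 1994 CPM. Rps29, Rpl13, Rps24, Rpl27a and Rps21 were at 1990, 1979, 1800, 1665 and 1636 CPM. By library, Rplp1 was at 955, 1203 and 2462 CPM in the naive, physical and ischemic injury libraries of the NG2 line and at 951, 2470 and 2668 CPM in those of the Tbx18 line. The naive libraries were lowest in both lines, and in the NG2 line the physical injury library stood near the naive library.

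The 5 lowest canonical genes were Rpl10, needed for late maturation of the large subunit, at 18.2 CPM, Rpl9 at 60, Rps27 at 75.2, Rpl36a at 218 and Rpl35 at 253 CPM. The next lowest, Rpl4, was at 446 CPM. These 5 are the genes whose 3′ ends are nearly or fully present in another gene of the tables: of the windows of 75 bases in the last 300 bases of 1 transcript per gene (GENCODE M21, GRCm38), 100% in Rpl10, Rpl9 and Rps27, 95.6% in Rpl35 and 91.6% in Rpl36a were found in such a gene. The next highest shares were 65.0% in Rps18 (860 CPM) and 47.8% in Rpl41, and the 71 canonical genes under 50% had a median of 1118 CPM and a minimum of 446. By contrast, 88.5% of the windows of Rps12 matched other annotated genes that are not in the tables, and Rps12 was at 1398 CPM. Reads that match 2 annotated genes equally well cannot be placed, so the levels of these 5 genes and their copies are uncertain. How much of the low level comes from this was not tested.

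**Figure D1:**
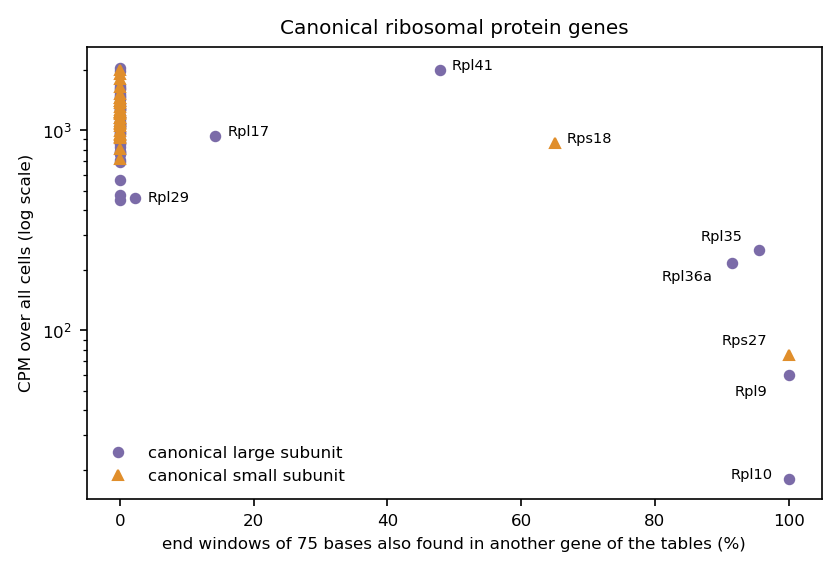
Each point is 1 of the 77 canonical ribosomal protein genes, with the share of 75-base windows in the last 300 bases of its transcript that also occur in another gene of the tables (x axis, %) against its level over all cells of the 6 libraries (y axis, CPM, log scale). The 5 genes at 91.6% or more, Rpl10, Rpl9, Rps27, Rpl36a and Rpl35, are the 5 lowest, at 18.2 to 253 CPM.

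The start of the coding sequence shows how alike gene and copy are. The first 60 coding bases in GENCODE M21 are shown for 1 of the 2 pairs with no difference and for the pair with most differences, with capitals at the bases that differ between gene and copy. Rps27 lies on chr3:90212522-90213651 (- strand) and Rps27rt on chr9:114982366-114982739 (- strand), and Rpl36a lies on chrX:134585654-134588062 (+ strand) and Rpl36a-ps1 on chr14:98993870-98994318 (- strand).
Rps27 and Rps27rt: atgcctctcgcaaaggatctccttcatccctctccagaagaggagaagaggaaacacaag
Rpl36a: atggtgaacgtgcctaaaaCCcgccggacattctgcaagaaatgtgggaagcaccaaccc
Rpl36a-ps1: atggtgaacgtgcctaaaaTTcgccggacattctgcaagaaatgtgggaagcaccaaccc
Over the aligned transcripts, Rps27 and Rps27rt were the same at 341 of 341 bases, Rpl10 and Rpl10-ps3 at 740 of 740, Rpl9 and Rpl9-ps6 at 691 of 695 and Rpl36a and Rpl36a-ps1 at 431 of 438. In the counts the copy could exceed the gene: Rpl10-ps3 was at 77.0 CPM over all cells beside 18.2 CPM for Rpl10, Rpl9-ps6 at 69.0 beside 60, and Rps27rt at 106 beside 75.2, while Rpl36a-ps1 was at 26.8 beside 218 CPM.

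The ribosomal protein share was higher in both injured libraries of the Tbx18 line and in the ischemic library of the NG2 line than in the naive libraries. In NG2-tdT+ cells it was 4.89% of UMIs (4.88 to 4.90) in the naive, 5.19% (5.18 to 5.20) in the physical injury and 9.17% (9.16 to 9.18) in the ischemic injury library. In Tbx18-tdT+ cells it was 5.16% (5.14 to 5.18), 10.8% and 12.2% in the same order. The median cell gave 4.35%, 4.09% and 6.04% in the NG2 line and 5.30%, 8.32% and 9.29% in the Tbx18 line. The higher share of the NG2 physical injury library over naive thus held for the summed UMIs and not for the median cell.

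Cells with more than 20% of their UMIs in this family numbered 10 of 4306, 42 of 2563 and 170 of 3586 in the NG2 libraries and 3 of 686, 393 of 3845 and 255 of 2047 in the Tbx18 libraries. At the other end, 116, 114 and 123 NG2 cells and 4, 142 and 19 Tbx18 cells were under 1%. Injured libraries of the Tbx18 line had the largest proportion of cells over 20%, at 10.2% and 12.5%.

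The libraries also held the clusters in different proportions. With each cluster weighted as in the naive library, the mean over cells in the NG2 line was 4.77% in naive, 4.72% in physical and 5.90% in ischemic injury, beside 4.77%, 5.30% and 7.83% without that weighting. In the Tbx18 line the same weighting gave 5.76%, 11.4% and 12.6% beside 5.76%, 10.3% and 11.5%. With naive cluster weights the ischemic and naive values of the NG2 line thus came closer, and those of the Tbx18 line moved further apart. Tbx18 clusters 3 and 4 had 3.56% and 8.63% in naive cells, against 19.6% to 25.3% after injury. Their 76 and 157 naive cells were shallow, with medians of 1118 and 1724 UMIs. Whether a cluster holds the same kind of cell before and after injury was not tested.

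**Figure D2:**
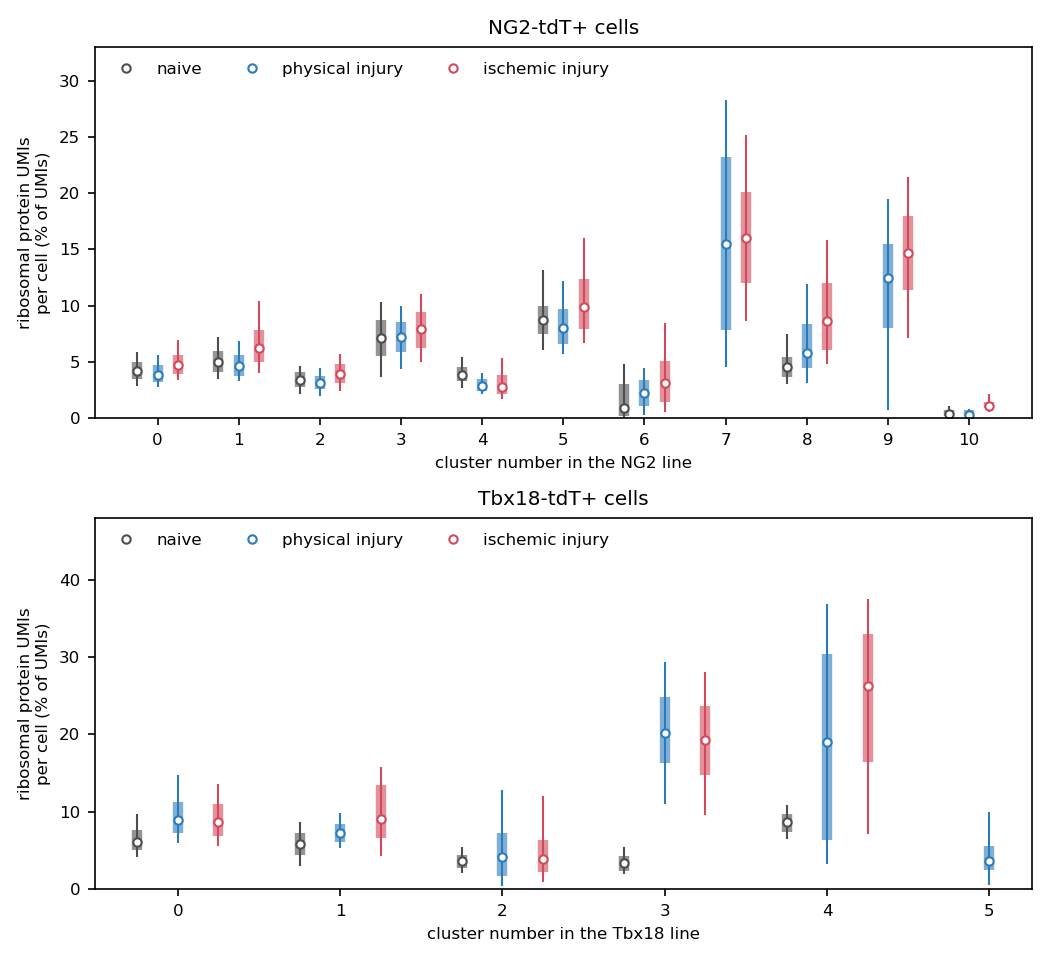
Ribosomal protein UMIs as a percentage of each cell's UMIs (y axis) by cluster (x axis) and library (colour) in NG2-tdT+ (top) and Tbx18-tdT+ cells (bottom), for clusters with at least 20 cells of that library. Circles are medians over cells, thick bars the middle 50% and thin lines the 10th to 90th percentile. NG2 clusters 7 and 9 and Tbx18 clusters 3 and 4 after injury stand above the other clusters, and NG2 cluster 10 lies at the bottom.

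Between clusters the share ran over a wider range than between libraries. In the pericyte-marker clusters 0, 1 and 2 of the NG2 line it was 4.25%, 5.17% and 3.46% over all 3 libraries, and in the OL-like cluster 4 it was 3.2%. The smooth muscle-like cluster 3 (7.31%), the mesenchymal-like cluster 8 (9.45%) and the endothelial-like cluster 5 (9.93%) were higher. Microglia and myeloid markers went with 14.1% in cluster 9, and the dividing cluster 7 had 16.1%. In the Tbx18 line the pericyte-like cluster 2 (4.44%) and the fibroblast-like cluster 5 (4.17%) were low, the smooth muscle-like cluster 1 (7.18%) and the endothelial-like cluster 0 (9.12%) were between, and clusters 3 (20%) and 4 (21.1%) were highest. NG2 clusters 0, 1 and 2 and Tbx18 cluster 2 therefore stood below the smooth muscle-like and endothelial-like clusters of their line.

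Clusters 6 and 10 of the NG2 line held cells with almost no ribosomal protein UMIs. In cluster 10 the share was 0.591%, 0.396% and 1.19% in the naive, physical and ischemic libraries, and 77 of its 110 cells were under 1%. In cluster 6 it was 2.49%, 3.15% and 5.10%, and 54 of 100, 72 of 301 and 62 of 294 cells were under 1%. Both clusters had a high share of UMIs in genes of at least 100 kb (37.7% in cluster 10 and 36.2% in cluster 6, against 22.1% or less in each of the other NG2 clusters), and in cluster 10 the nuclear RNA Malat1 took 9.19% of UMIs and the median cell held 2253 UMIs. Their part in the low share was not tested.

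Within a cluster and library, cell depth and the ribosomal protein share went together in neither direction throughout. Over 42 such groups, Spearman's rho over cells between the share and the UMIs per cell ran from -0.48 to 0.60. Its median was -0.06 and it was negative in 23. In some clusters the sign was the same in each library. In naive, physical and ischemic order rho was -0.34, -0.40 and -0.37 in NG2 cluster 0 and -0.29, -0.34 and -0.24 in cluster 1. It was 0.60, 0.50 and 0.50 in cluster 6, and near 0 in cluster 2 (0.03, -0.01 and 0.10). The rho with the Malat1 share was negative in all 42 groups (median -0.51), and that with the share in genes of at least 100 kb as well (median -0.69, from -0.93 to -0.53). With mitochondrial transcripts the median was 0.08. All these shares have the cell's UMIs as a common denominator, which can make shares run against each other. Its part in these correlations was not tested.

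In NG2 cluster 7 after injury, nearly the whole family was higher than in cluster 1. The share was 13.6% in 76 cells of the physical and 16.3% in 438 cells of the ischemic injury library, against 4.66% and 6.44% in cluster 1. Cells of cluster 7 were deeper, with a median of 32132 UMIs over both injured libraries against 3552 in cluster 1, and Malat1 took 1.03% of their UMIs against 4.56%. Among cells of 2000 to 10000 UMIs the share in cluster 7 was 23.0%, above its value over all depths. The 17 naive cells of cluster 7 had a median of 987 UMIs and a share of 7.17%.

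Rps12, a small subunit protein, was at 2279 and 2905 CPM in cluster 7 of the physical and ischemic libraries and at 480 and 673 CPM in cluster 1. Rps26, which lies at the mRNA exit channel, was at 2344 and 2826 against 478 and 672 CPM, and Rplp0, the base of the ribosomal stalk, at 2116 and 2507 against 429 and 628 CPM. Rps2, a core small subunit protein, was at 2792 and 2396 against 510 and 495 CPM. In these 4 genes each library of cluster 7 was above both libraries of cluster 1. Over the pooled injured cells the log2 ratio (pseudocount 1 CPM) was 2.34 for Rps12, 2.31 for Rps26, 2.27 for Rplp0, 2.26 for Rps2 and 2.21 for Rpl41, the 5 largest among members of at least 50 CPM. The 5 smallest were Rpl9-ps6 (0.34), Rpl10-ps3 (0.36), Rpl9 (0.49), Rps27rt (0.55) and Rpl7l1 (0.68), 4 of them from the pairs of gene and copy above.

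Of 87 members with at least 10 counts, 77 were at least 2-fold higher in cluster 7 than in cluster 1 and 0 were 2-fold lower, and of all 15740 genes 26.9% were higher and 16.7% lower. The canonical genes had a median log2 ratio of 1.53 (from 0.24 to 2.34) against 0.20 over all genes. Within the physical injury library the canonical median was 1.47 and within the ischemic library 1.32, with all 77 above 0 in each. Both medians lay below the pooled 1.53. The physical and ischemic libraries gave 76 and 438 cells to cluster 7 but 318 and 309 to cluster 1. The pool, on which the count of members rests, thus mixes them unequally.

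Against cluster 6, with OPC and committed precursor markers, cluster 7 was higher in 81 of 87 members and lower in 0, where 9.17% of 16510 genes were higher and 16.2% lower. The canonical median was 1.96 against -0.26 over all genes. With TMM scaling in place of total UMIs the split over all genes turned to 14.8% higher and 9.61% lower, and 84 members were higher. Rpl12, which sits at the base of the stalk, was at 1408 and 1949 CPM in the physical and ischemic libraries of cluster 7 and at 221 and 440 CPM in cluster 6, the largest ratio (log2 2.52). Rplp0 (2.46), Rps12 (2.41), Rps20 (2.38) and Rps19 (2.36) followed. The smallest were Rpl7l1 (0.59), Rpl9 (0.66), Rps19bp1 (0.94), Rpl13 (1.00) and Rpl10-ps3 (1.46). Rpl13 was at 1888 and 2012 CPM in cluster 6 and at 3952 and 3889 CPM in cluster 7, a smaller ratio from a higher level in cluster 6 than the other genes named had. Within the physical and ischemic libraries the canonical medians were 2.06 and 1.65.

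Cluster 4 of the Tbx18 line had a share of 20.4% after physical injury, close to the 20.8% of cluster 3, and of 25.3% after ischemic injury, the highest of that library, and 8.63% in its 157 naive cells, whose median depth was 1724 UMIs. Compared with the pericyte-like cluster 2 in the injured libraries, 85 of 88 members were at least 2-fold higher and 0 lower, with 17.6% of 13297 genes higher and 31.7% lower. The canonical median was 2.04 against -0.45 over all genes, and 1.92 and 2.30 within the physical and ischemic libraries. Rps26 was at 3460 and 4499 CPM in cluster 4 and at 519 and 536 CPM in cluster 2 (log2 2.86), and Rps2 at 3344 and 3829 against 523 and 494 CPM (2.76). Rpl35 (2.79), Rps18 (2.76) and Rplp0 (2.68) were the other large ratios, and Rpl7l1 (0.62), Rps27 (1.06), Rpl21 (1.27), Rpl9 (1.38) and Rpl29 (1.41) the smallest. Rps2, Rps26 and Rplp0 were thus among the 5 largest ratios both here and in cluster 7 against cluster 1. The proportion of cluster 2 cells under 1% was large after physical injury, 90 of 433, and 9 of 86 after ischemic injury against 4 of 226 in naive.

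**Figure D3:**
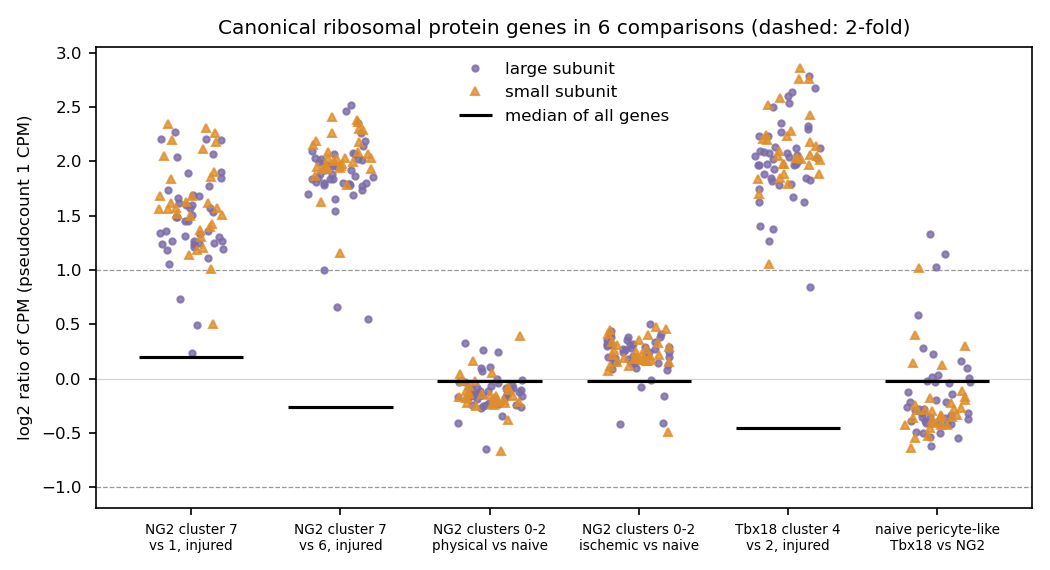
Log2 ratio of CPM (pseudocount 1 CPM, y axis) of the 77 canonical ribosomal protein genes in 6 comparisons (x axis), with large subunit genes as circles, small subunit genes as triangles, the median of all genes tested as a black bar and dashed lines at 2-fold. In the 3 cluster comparisons every canonical gene is above 0, with medians of 1.53, 1.96 and 2.04, and in the 2 injury comparisons no canonical gene passes 2-fold.

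In NG2 pericytes the family differed little between injured and naive cells, with a lower share after physical and a higher share after ischemic injury. Over clusters 0, 1 and 2 the share was 4.14% in naive, 3.79% in physical and 4.89% in ischemic injury cells, a log2 ratio to naive of -0.13 (-0.14 to -0.12) and 0.24 (0.23 to 0.25). The direction was the same in each of the 3 clusters, at -0.07, -0.10 and -0.10 after physical and 0.21, 0.36 and 0.23 after ischemic injury. The pooled -0.13 lay below each of the 3 cluster values. The pool mixes the clusters unequally: cluster 2, with the lowest share, gave 877 of 3243 naive but 407 of 1106 physical injury cells. The counts by gene below rest on the same pool. Both comparisons use the same naive library. The median depth was 3821, 4684 and 4202 UMIs in naive, physical and ischemic injury cells. Malat1 was at 5.39%, 6.88% and 5.01% and the share in genes of at least 100 kb at 16%, 19.2% and 16.1% in the same cells. Without those long genes in the denominator the ratio after physical injury was -0.07. Their part in the difference was not tested.

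By gene, 0 of 88 members passed 2-fold in either direction after physical injury, where 0.573% of 14131 genes were higher and 0.800% lower. After ischemic injury it was 0 of 86, where 1.71% of 14115 genes were higher and 0.857% lower. Of the 77 canonical genes 66 were below 0 after physical injury (median -0.15) and 71 above 0 after ischemic injury (median 0.22), with -0.02 over all genes in both. Rpl13a, which can also leave the ribosome to regulate translation, was at 492 CPM (480 to 505) in naive and 694 (671 to 719) in ischemic injury pericytes, the largest difference (log2 0.50), before Rps28 (0.48), Rps19 (0.46), Rps29 (0.45) and Rplp1 (0.44). Rpl35 (-0.42), Rpl22l1 (-0.23), Rpl36a (-0.16), Rpl7l1 (-0.10) and Rpl3 (-0.01) were at the lower end. After physical injury Rps2 was at 420 CPM (402 to 437) against 319 (309 to 329) in naive, the largest ratio (0.39), followed by Rpl10-ps3 (0.38), Rpl9-ps6 (0.37), Rpl21 (0.26) and Rpl17 (0.25). Rpl35 (-0.65), Rpl22l1 (-0.56), Rpl36a (-0.41) and Rpl18 (-0.34) were at the lower end. Among members of at least 50 CPM, Rpl35, Rpl22l1 and Rpl36a were therefore lowest after both injuries, measured against the same naive cells. The levels of Rpl35 and Rpl36a, whose 3′ ends are nearly all present in another gene, are uncertain. So are those of the copies Rpl10-ps3 and Rpl9-ps6.

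Other NG2 clusters had larger differences. In the mesenchymal-like cluster 8 the share was 4.59% in naive, 8.43% in physical and 11.2% in ischemic injury cells (log2 0.88 and 1.29). In cluster 6 the ratio of ischemic injury to naive was 1.04 on the log2 scale. Naive and ischemic injury cells had median depths of 4026 and 8444 UMIs in cluster 8 and 4692 and 11764 in cluster 6. Between share and depth, rho was 0.60, 0.50 and 0.50 in the naive, physical and ischemic cells of cluster 6. It was -0.26, 0.39 and 0.32 in those of cluster 8. The part of depth in these ratios was not tested. The endothelial-like cluster 5 had 8.57%, 8.47% and 11.2% and the smooth muscle-like cluster 3 had 7.15%, 7.09% and 7.82%. Only the OL-like cluster 4, among the NG2 clusters with at least 20 cells per library other than cluster 10, was below naive after both injuries, at 3.9%, 2.9% and 3.28%. Its median depth was 13252 UMIs in naive and 23779 and 29600 after injury.

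In the Tbx18 line all 5 clusters compared were above naive after both injuries. The endothelial-like cluster 0 had 6.78% in naive, 9.16% in physical and 9.22% in ischemic injury (log2 0.43 and 0.44), the smooth muscle-like cluster 1 had 6.05%, 7.23% and 7.81%, and the pericyte-like cluster 2 had 3.53%, 5.20% and 5.03% (log2 0.56 and 0.51). In the myeloid-like cluster 3 it was 3.56%, 20.8% and 19.6%, but its 76 naive cells had a median of 1118 UMIs against 12086 and 15595 after injury. The physical and ischemic libraries differed little in clusters 0 and 2, with log2 ratios of 0.01 and -0.05. Injury, library and depth cannot be told apart in these comparisons.

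In naive pericyte-like clusters the family was slightly lower in Tbx18-tdT+ than in NG2-tdT+ cells. The share was 3.53% in 273 Tbx18 and 4.15% in 3194 NG2 cells (log2 -0.23, -0.25 to -0.22), and it was lower in 6 of 6 clusters. These clusters held 26 to 66 Tbx18 cells each. The median depth was 5365 UMIs in the Tbx18 and 3836 UMIs in the NG2 cells, and its part in the difference was not tested. Genes of at least 100 kb held 23.1% and 16.1% of UMIs in these cells. With those genes left out of the denominator the ratio was -0.11. The 6 clusters were pooled unequally. For example, 1 of them, at 4.61% in Tbx18 and 5.03% in NG2 cells, gave 36 of 273 Tbx18 but 639 of 3194 NG2 cells. By gene, 7 of 86 members were at least 2-fold higher and 0 lower in Tbx18 cells, where 5.76% of 13846 genes were higher and 5.89% lower, and 61 of 77 canonical genes were below 0 (median -0.29 against -0.02 over all genes). The members furthest above were Rpl10-ps3 at 225 CPM (202 to 250) against 40.8 (37.3 to 44.5), Rpl9-ps6 (log2 1.82), Rpl9 (1.33), Rps27rt (1.22) and Rpl35 (1.15). Rps27, at 84.3 against 41.2 CPM, and Rpl10, at 29.4 against 13.9 CPM, were also past 2-fold. All 7 of these are genes with nearly identical copies or such copies themselves. Rps16 (-0.64), Rpl18 (-0.62), Rps27l (-0.59), Rpl19 (-0.55) and Rps27a (-0.55), whose product is fused to ubiquitin, were furthest below.

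The make-up of the family, each gene as a share of the canonical family's UMIs, differed little between clusters and libraries. Over 42 groups of cluster and library, the SD of the log2 share of a gene was 0.13 over libraries within a cluster and 0.19 over clusters within a library in the median gene, and it was at most 0.3 in 72 and 67 of 77 genes. The log2 make-up of any pair of groups had a Pearson correlation across genes of at least 0.83, with a median of 0.94, and the ratio of large to small subunit UMIs stayed between 1.18 and 1.5. Genes are not independent replicates, so these correlations are descriptions. Rpl10, Rps27, Rpl9, Rpl36a and Rpl35, at a mean of 0.0324% to 0.294% of the family, lay below all other canonical genes. Genes that low in most groups can raise such a correlation, and their part in it was not tested. The family thus differed mainly as a block, and single genes departed from it.

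The largest departures over libraries were in Rpl9 (SD 0.80), Rpl10 (0.66), Rps27 (0.60), Rpl35 (0.37) and Rps2 (0.32). Over clusters they were in Rpl10 (0.66), Rps27 (0.57), Rpl9 (0.50), Rpl21 (0.38) and Rpl38 (0.37). Rpl10 with its copies made up 0.129%, 0.131% and 0.0630% of the family in the NG2 naive, physical and ischemic libraries and 0.565%, 0.117% and 0.162% in those of the Tbx18 line. Rpl9 with its copies was at 0.194%, 0.188% and 0.0934% and at 0.806%, 0.150% and 0.206%. For both genes the Tbx18 naive library stood well above the other 5 libraries, and adding the copies to the gene did not remove that. Whether the annotation or software differed between libraries was not tested.

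Of the paralog-like members, 3 were well detected. Rpl22l1, which can take the place of Rpl22 in the large subunit, was at 426, 264 and 461 CPM in the NG2 naive, physical and ischemic libraries and at 359, 401 and 358 CPM in the Tbx18 libraries. Rps27l, a p53 target, was at 234, 186 and 420 CPM and at 182, 261 and 261 CPM, and Rpl36al at 236, 245 and 436 CPM and at 194, 386 and 425 CPM. Rpl22l1 thus did not follow the family, which was higher in both injured Tbx18 libraries. Rpl7l1, a nucleolar relative of Rpl7, was between 47.9 and 67.7 CPM in all 6 libraries. Rpl39l, Rpl3l and Rpl10l, known from testis and striated muscle, were at 0.877, 0.275 and 0.164 CPM over all cells, below the median gene.

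The balance between Rpl22l1 and Rpl22 differed between naive and injured cells. Rpl22l1 UMIs per Rpl22 UMI were 1.08 in naive, 0.638 in physical and 0.610 in ischemic injury in the NG2 line, and 0.893, 0.438 and 0.346 in the Tbx18 line. In NG2 cluster 0 the ratio was 1.57, 1.08 and 0.999, with 505, 341 and 385 CPM of Rpl22l1 and 320, 314 and 385 CPM of Rpl22. The ratio was also highest in naive in NG2 clusters 1, 2, 3, 5, 6 and 8 and in Tbx18 clusters 0, 2, 3 and 4 (the naive value of cluster 3 rests on 44 Rpl22l1 UMIs), while in the OL-like NG2 cluster 4 it was 0.578, 0.566 and 0.567. Endothelial-like cells had low ratios, 0.353 to 0.448 in the NG2 line. Rpl22l1 was highest in Tbx18 cluster 4 (1054 and 1240 CPM after physical and ischemic injury) and in NG2 cluster 7 (694 and 914 CPM). In both clusters Rpl22 was higher still, and the ratios were 0.599 to 0.666.

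**Figure D4:**
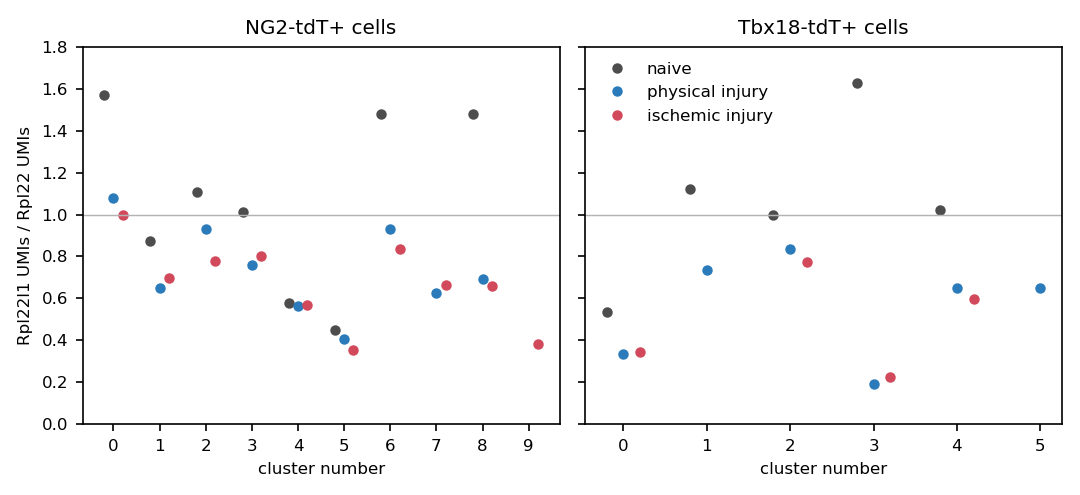
Rpl22l1 UMIs divided by Rpl22 UMIs (y axis) in each cluster (x axis) and library (colour) with at least 50 cells, in NG2-tdT+ (left) and Tbx18-tdT+ cells (right), with a line at equal counts. Naive points lie above the injured points of their cluster, by least in the OL-like NG2 cluster 4, where all 3 are at 0.566 to 0.578.

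Other genes of translation followed the family across clusters, and those of the mitochondrial ribosome less closely. Over the 17 clusters of both lines with at least 50 cells, the CPM summed over the family had a Spearman's rho of 0.99 with 19 translation genes that carry a TOP start, 0.85 with 30 genes of ribosome biogenesis, 0.49 with the mitochondrial ribosomal proteins and -0.46 with 9 regulators such as Mtor, Larp1 and Maf1. Among single genes it was 1.00 for Rack1, a scaffold on the small subunit, 0.98 for Fau, whose product yields a small subunit protein, 0.97 for the elongation factor Eef1a1, 0.73 for nucleolin (Ncl) and 0.48 for Myc. Clusters of a line share libraries and CPM shares a total, so these are descriptions. Rack1 was at 1838 CPM in Tbx18 cluster 4 and at 1351 CPM in NG2 cluster 7, against 266 to 357 CPM in NG2 clusters 0, 1 and 2. Tbx18 cluster 3 departed from the rest on the biogenesis list: its family total was 105 times its biogenesis total, beside 47.9 times in Tbx18 cluster 4 and 43.0 times in NG2 cluster 7.

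**Figure D5:**
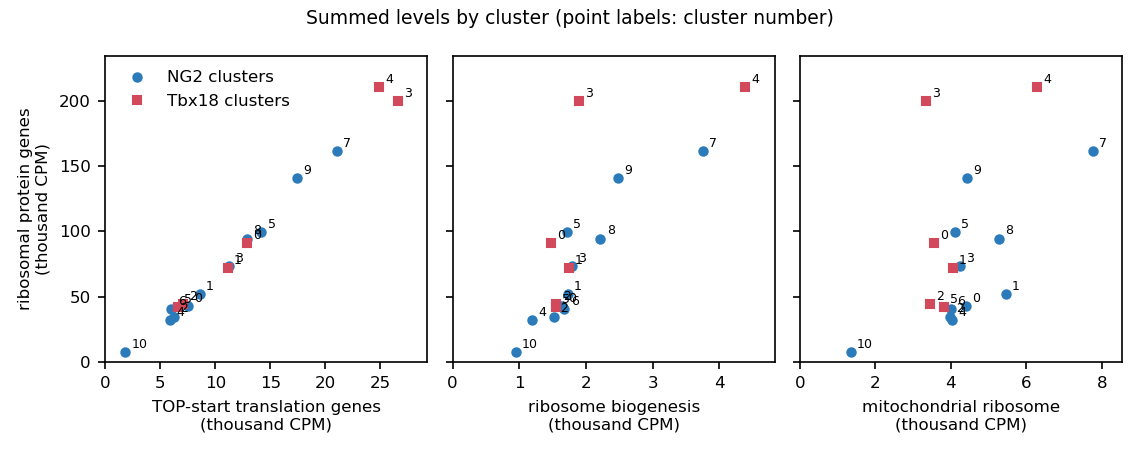
Summed CPM of the ribosomal protein genes (y axis, in units of 1000 CPM) against the summed CPM of 3 gene lists (x axes, in units of 1000 CPM) in the 17 clusters with at least 50 cells, NG2 clusters as circles and Tbx18 clusters as squares, labelled by cluster number. Points lie close to a line for the TOP-start list (rho 0.99) and scatter for the mitochondrial ribosome (rho 0.49).

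In cluster 7 against cluster 1, 9 of the 19 TOP-start genes were at least 2-fold higher and 0 lower (median 0.95), as were 10 of 30 biogenesis genes (median 0.75) and 12 of 78 mitochondrial ribosomal protein genes (median 0.38), where 26.9% of all genes were higher and the median of all genes was 0.20. The share of the biogenesis list was near that of all genes and the share of the mitochondrial list below it. Against cluster 6, 18 of 19 (median 1.64), 5 of 30 (median 0.64) and 27 of 78 (median 0.80) were higher and 0 lower, where 9.17% of all genes were higher, 16.2% were lower and the median was -0.26. Among the 9 regulators 3 were higher and 2 lower against cluster 1, and 1 higher against cluster 6. In Tbx18 cluster 4 against cluster 2, 17 of 19 TOP-start genes and 12 of 30 biogenesis genes were higher, and 5 of 8 regulators were lower and 1 higher (median -1.21), where 17.6% of all genes were higher, 31.7% were lower and the median was -0.45. Of the 78 mitochondrial genes 18 were higher and 1 lower, near the share of all genes called higher. In NG2 pericytes after either injury 0 genes of the TOP-start, biogenesis and mitochondrial lists passed 2-fold, and 1 of 8 regulators was higher after ischemic injury. Over all genes 0.573% were higher and 0.800% lower after physical injury, and 1.71% and 0.857% after ischemic injury. Between the naive lines 1 of 19 TOP-start and 1 of 30 biogenesis genes were higher and 2 of 78 mitochondrial genes lower in Tbx18 cells. These shares were near or below those of all genes, 5.76% higher and 5.89% lower. The 3 medians were -0.25, -0.17 and -0.52, against -0.02 over all genes. The TOP-start list therefore went with the ribosomal protein genes in each cluster comparison. In those comparisons the medians of the biogenesis and mitochondrial lists lay between its median and that of all genes.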

How the data were processed

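Sorted tdT+/DAPI- cells were profiled by droplet 3′ RNA-seq. The deposited UMI counts come from Cell Ranger (7.0.0 in the submitters' processing notes, a range of versions up to it in the methods, with the version of each library not given in the sources used here) on mm10 (GRCm38) and cover cells already filtered by the authors. The authors also deposited 2 columns from Seurat, the percent of each cell's transcripts that are ribosomal and the percent that are mitochondrial. The former was only set beside the share computed here. The mitochondrial filter in 1 alternative used a percent computed from the UMI counts and not the deposited one. Cluster numbers are the authors' own. Doublets are mentioned in neither the methods nor the labels and none were removed here, and all deposited cells were kept.

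The ribosomal protein share is the members' UMIs over all UMIs of a group of cells, with exact Clopper-Pearson 95% intervals. CPM of summed counts have exact Poisson intervals. Ratios used a pseudocount of 1 CPM, genes with at least 10 counts over both groups, and a call at 2-fold. Groups came from the sample titles, with 1 library each and pooled animals. Naive cells, present in 2 tables each with equal family UMIs, were counted once. Shares by cluster needed 50 cells, and 20 within a library. Named genes were the 8 highest and 5 lowest canonical genes, the 5 largest ratios each way among members with at least 50 CPM in the higher group, the paralog-like members and genes of the listed families. Some genes that this rule names are not reported here. Clusters were named from 14 marker lists. Members and lists were chosen with earlier results of these data known. GENCODE M21 may not be the authors' annotation release, and 22981 of 23494 genes matched it for length. Scripts were tested on simulated data. edgeR 4.0.16 in R 4.3.3 gave TMM factors only, and the rest was computed in Python 3.11.15 (pandas 2.3.3, scipy 1.17.1, numpy 2.4.6), with figures from matplotlib 3.10.9.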

Additional observations from a re-analysis of the deposited data

Results flagged for a closer look

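After physical injury the ribosomal protein share stood below naive in the NG2 line and above naive in the Tbx18 line in 3 kinds of cluster. The log2 ratio to naive was -0.13 in the NG2 and 0.56 in the Tbx18 pericyte clusters, -0.01 and 0.26 in the smooth muscle-like clusters, and -0.02 and 0.43 in the endothelial-like clusters. The NG2 smooth muscle-like and endothelial-like values changed sign when genes of at least 100 kb were left out of the denominator, to 8.38% after physical injury against 8.35% in naive and 10.2% against 9.96%. In the median smooth muscle-like cell the share was also higher after physical injury, 7.23% against 7.12%. Each value rests on 1 library against 1, and the difference between the lines was not tested. After ischemic injury both lines were above naive in these clusters.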

How the results depend on the processing

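No paired analysis was possible because each group has 1 library. The 5 log2 ratios given below kept their direction under these alternatives. The share of the NG2 physical injury library, above naive in summed UMIs, was below it in the median cell (4.09% against 4.35%) and with naive cluster weights (4.72% against 4.77%). Shares are given in the order NG2 naive, physical, ischemic, Tbx18 naive, physical, ischemic, then NG2 cluster 7 and Tbx18 cluster 4 after injury. With canonical genes only they were 4.77%, 5.09%, 9.01%, 5.01%, 10.6%, 12%, 15.9% and 21.6%. Without mitochondrial genes in the denominator they were 5.05%, 5.37%, 9.43%, 5.32%, 11.2%, 12.5%, 16.6% and 22.8%. As means over cells they were 4.77%, 5.30%, 7.83%, 5.76%, 10.3%, 11.5%, 16.8% and 21.2%. In cells of 2000 to 10000 UMIs they were 4.73%, 5.03%, 6.91%, 4.79%, 9.61%, 10.4%, 23.0% and 19.8%. With the methods' filters applied again they were 4.77%, 5.23%, 8.14%, 5.08%, 10.0%, 11.4%, 16.6% and 20.4%. Without genes of at least 100 kb in the denominator, an alternative chosen after seeing the data, they were 5.86%, 6.67%, 11.2%, 6.49%, 12.6%, 14.5%, 19.1% and 24.0%.

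The log2 ratio of physical injury to naive in NG2 pericytes was -0.11 as a mean over cells and -0.07 without long genes, and that of ischemic injury 0.27 as a mean over cells. In Tbx18 cluster 0 the ratios after physical and ischemic injury were 0.45 and 0.46 with canonical genes only, 0.52 and 0.46 as means over cells, 0.38 and 0.40 in cells of 2000 to 10000 UMIs, 0.38 and 0.39 with the filters, and 0.38 and 0.42 without long genes. For Tbx18 against NG2 naive cells it was -0.21 as a mean over cells, -0.17 in cells of 2000 to 10000 UMIs, -0.21 with the filters and -0.11 without long genes. At 1.5-fold 2 of 88 members were higher and 2 lower after physical injury in NG2 pericytes, where 3.65% of all genes were higher and 4.79% lower. At a pseudocount of 0.1 CPM 2 of 88 were higher and 0 lower, where 2.15% of all genes were higher and 3.63% lower. These counts of members were thus near or below the share of all genes.

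Over all genes the calls depended more on the settings. In NG2 cluster 7 against 6, TMM scaling gave 2438 higher and 1586 lower genes against 1514 and 2670, and moved the median of all genes from -0.26 to 0.05. After physical injury in NG2 pericytes a pseudocount of 0.1 CPM gave 304 higher and 513 lower genes against 81 and 113, and after ischemic injury 504 and 541 against 242 and 121. At 1.5-fold these were 516 and 677, and 659 and 680, and at least 100 CPM in the higher group left 7 and 17, and 10 and 0. In cluster 7 against 6, 1.5-fold gave 2810 and 5385 genes and the level of 100 CPM 579 and 619. In cluster 7 against 1, the level of 100 CPM gave 757 and 725 against 4228 and 2623, and 1.5-fold 3972 lower. A level of 100 CPM tests fewer genes and 1.5-fold lowers the threshold. TMM scaling changes the CPM of all genes in a group by a common factor. A smaller pseudocount changes the ratios most in genes with low CPM. Which genes made up these shifts was not tested. With 1 pooled library per condition, the depth sets only counting error, and the spread between animals is unknown.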

Other observations

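By cell depth, the share in the NG2 ischemic injury library was 8.55% in cells under 2000 UMIs, 6.13% from 2000 to 5000 UMIs and 9.89% above 20000 UMIs. In the Tbx18 physical injury library it was 11.6%, 10.2% and 19.1% in the same classes, the last with 66 cells. From 5000 to 10000 and from 10000 to 20000 UMIs it was 7.31% and 8.68% in the NG2 ischemic injury library. In the Tbx18 physical injury library it was 9.50% and 11.1% there. The classes pool clusters of unlike depth, and the part of the clusters was not tested. The deposited ribosomal percent per cell had a Pearson correlation of 0.9996 or more with the share computed here in each of the 3 tables, with a median absolute difference of 0.02 to 0.0466 percentage points.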
